A study of Mus musculus with 36 samples.

Results

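The 10 transcripts described here encode interferon-inducible GTPases. Irgm1, Irgm2, Igtp, Iigp1, Ifi47, Tgtp1 and Tgtp2 belong to the immunity-related GTPases (IRGs), and Gbp2, Gbp3 and Gbp7 to the guanylate-binding proteins (GBPs). They were taken by gene symbol from a table of 36066 genes, and all 10 were found and were above 0 in all 36 mice. Because these genes had been chosen by their levels in the same livers, their differences between groups are given as a description, without a test of their own.

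The study asked how vitamin C (ascorbate) supply changes the liver of Gulo-/- mice, which lack the last enzyme of ascorbate synthesis and depend on ascorbate in drinking water. Whole livers of 36 mice aged 4 months were taken after an overnight fast, and poly(A) RNA was sequenced from strand-specific libraries. The mice formed 12 groups of 3, labelled F for females and M for males. Gulo-/- mice of the GL40, GL05 and GL01 groups drank 0.4%, 0.05% and 0.01% ascorbate from weaning. GL00 mice drank 0.4% until 3 months of age and then none for 4 weeks. GLR40 mice drank 0.4% until 2 months, none for 1 month, and 0.4% again until 4 months. WT00 mice were wild type (Gulo+/+) and received no ascorbate. A comparison of WT00 with any Gulo-/- group, GL40 and GL00 included, holds a change of genotype and of supply that cannot be told apart. Each mouse is named by its group and animal number, and no source used here says whether mice of a group shared a litter or cage.

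Interferon gamma, made by lymphocytes, signals through its receptor and JAK kinases, and IRG and GBP genes are among the transcripts it raises most. The proteins gather on the vacuoles in which intracellular parasites and bacteria live and help to break these membranes open. Within the IRG family, Irgm1, Irgm2 and Igtp (also called Irgm3) regulate the others and keep them off the membranes of the cell itself, whereas Iigp1 (Irga6), Ifi47 (Irgd), Tgtp1 and Tgtp2 (both Irgb6) are effectors that coat the vacuole. Gbp2, Gbp3 and Gbp7 join them on the vacuole, with the help of the ATG8 conjugation system of autophagy.

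The genes lie in clusters on the mouse genome (RefSeq, GRCm38.p6). Irgm1, Tgtp1, Tgtp2 and Ifi47 lie between positions 48865245 and 49096987 of chromosome 11, Igtp and Irgm2 between 58199556 and 58222783 of the same chromosome, and Gbp7, Gbp3 and Gbp2 between 142530336 and 142638008 of chromosome 3. A promoter window of 250 bases before and 50 bases after the annotated start was used for 9 of the 10 genes, all but Iigp1. It was searched on both strands for the letters of 2 interferon response motifs: GAAANNGAAA for the interferon-stimulated response element (ISRE) and TTCNNNGAA for the gamma-activated site (GAS). An ISRE match was found in 8 of the 9 genes and in 3.44% of all 32851 windows of the same length. A GAS match was found in 5 of the 9 genes and in 8.3% of all windows. Among 8 other IRG and GBP genes whose window was used, 5 held an ISRE match and 3 a GAS match. Iigp1, the most abundant member, and some other IRG and GBP genes were left out of this search. The counts of matches do not cover them. A match describes the letters alone and not the binding of a factor.

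The stretches that hold the matches are shown to give the place of the motifs relative to the start. Whether the motifs bear on the levels was not tested. Each is written 5′ to 3′ on the strand of the gene, matches are in capitals on either strand, and all bases lie upstream of the start that defines the window. For Gbp3 that start lies inside the RefSeq gene, which begins at 142560016, so that the end of its stretch is within the gene.
Irgm1 (chr11:48871425-48871460, minus strand): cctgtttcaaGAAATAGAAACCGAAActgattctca
Irgm2 (chr11:58214892-58214932, plus strand): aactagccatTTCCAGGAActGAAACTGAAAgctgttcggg
Igtp (chr11:58199501-58199541, plus strand): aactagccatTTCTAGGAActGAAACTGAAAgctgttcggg
Tgtp1 (chr11:48992304-48992344, minus strand): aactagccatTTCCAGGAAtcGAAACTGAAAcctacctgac
Tgtp2 (chr11:49064263-49064303, minus strand): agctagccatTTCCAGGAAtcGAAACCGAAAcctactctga
Gbp2 (chr3:142620594-142620623, plus strand): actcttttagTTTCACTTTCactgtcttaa
Gbp3 (chr3:142559989-142560024, plus strand): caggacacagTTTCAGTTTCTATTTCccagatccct
Gbp7 (chr3:142530220-142530302, plus strand): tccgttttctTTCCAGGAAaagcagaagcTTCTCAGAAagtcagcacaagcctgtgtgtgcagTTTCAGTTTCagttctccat

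In Irgm2, Igtp, Tgtp1 and Tgtp2 the first base of the GAS match stood 11 bases before that of the ISRE match, and the ISRE match lay on the strand of the gene. In Gbp2, Gbp3 and Gbp7 the ISRE match lay on the other strand and therefore reads as its reverse complement. The 2 ISRE matches of Irgm1 overlapped each other, as did those of Gbp3. The window of Ifi47 held neither set of letters, and nor did a further window of Gbp3, at a later start.

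**Figure D1:**
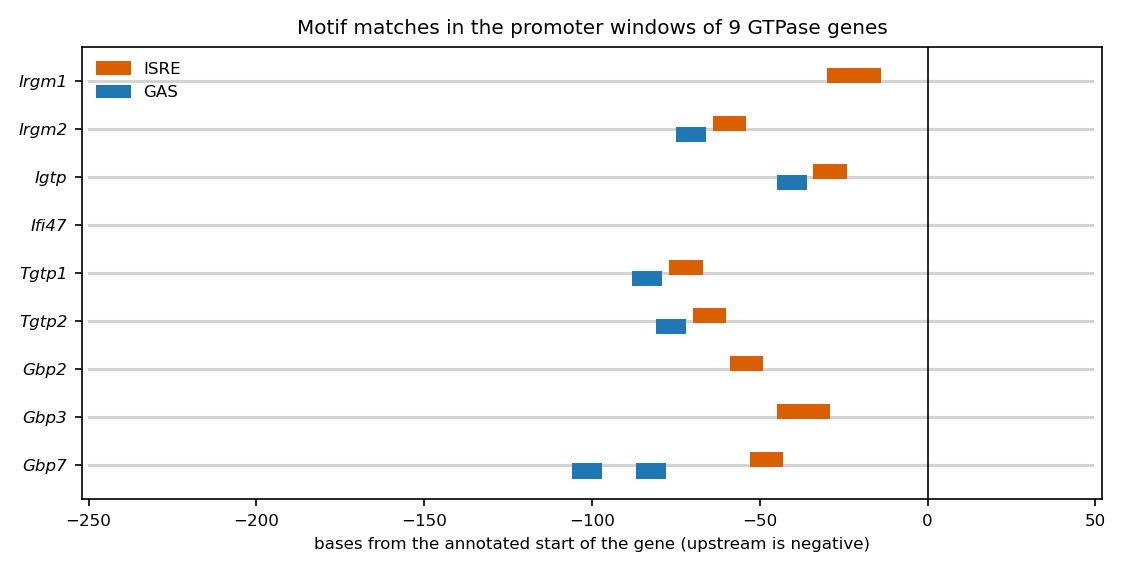
Positions of ISRE (orange) and GAS (blue) matches in the promoter windows of 9 GTPase genes; the x axis gives bases from the start that defines the window, and the grey line is the window searched. The matches of 8 genes lay upstream of that start, and the window of Ifi47 held none.

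Levels are given as TPM (transcripts per 1000000), a unit scaled by transcript length and by library, so that genes can be set side by side. Iigp1 was by far the most abundant of the 10, with a mean of 127 TPM over the 36 mice and 50.04% of their summed TPM. The regulators Irgm1, Igtp and Irgm2 followed with means of 34.8, 27.3 and 27.1 TPM, and the effector Ifi47 with 15.6 TPM. The other members were rare transcripts, with means of 3.503 TPM for Tgtp2, 4.15 for Gbp7, 4.17 for Gbp2, 4.62 for Tgtp1 and 5.402 for Gbp3. Tgtp1 and Tgtp2 share 83.2% and 89.2% of their 31-base words with each other in the GENCODE transcripts, so their sum is surer than either value. Igtp shares 15.9% of its words with Irgm2, and Gbp7 shares 14.7% of its words with other genes. The remaining 6 genes share between 2.88% and 10.7%.

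Facts on the whole series bear on a few of these values. Gulo transcripts were at 16.4 to 52.2 TPM in the Gulo-/- groups and at 144 to 269 TPM in WT00 mice, and Ddx3y, a gene of the Y chromosome, was at 15.1 TPM or more in all males and at 0.875 TPM or less in all females. Mouse MGLR40-2831 is titled female. It was used as a male, as its animal name, sex label and Ddx3y level are male. Hepatocyte markers summed to between 60910 and 95480 TPM in every liver. Mouse FGL40-2695 also carried transcripts of the exocrine pancreas, at 1.17% of its TPM, against summed levels of 10.2 to 69.1 TPM in the other 35 mice, and it had the lowest FGL40 value for 9 of the 10 GTPase genes. Counts of members called against FGL40 are therefore given with and without it, and counts of other gene lists also without it where they differ. In whole liver, fewer cells of a type and less RNA per cell cannot be told apart.

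In females, GTPase transcripts were lower after ascorbate was withdrawn. Irgm2, a regulator of the IRG family, stood at 37.0, 25.1 and 32.3 TPM in the 3 FGL40 mice and at 11.3, 11.6 and 9.79 TPM in the 3 FGL00 mice. Its relative Igtp stood at 42.5, 23.3 and 35.7 TPM in FGL40 and at 10.5, 13.8 and 9.93 TPM in FGL00. Irgm1 stood at 59.1, 33.9 and 39.1 TPM in FGL40 and at 20.6, 23.5 and 19.3 TPM in FGL00. For all 3 regulators each FGL00 mouse was below each FGL40 mouse. The log2 differences, taken on TPM + 1 with limma over all genes, were -1.44 ± 0.19 (SE, n = 3 and 3) for Irgm2, -1.46 ± 0.30 for Igtp and -0.99 ± 0.17 for Irgm1. Mean levels of Irgm2 were thus 31.5 ± 5.98 TPM (SD, n = 3) in FGL40 and 10.9 ± 0.97 TPM in FGL00.

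The effector Iigp1 stood at 166, 124 and 152 TPM in FGL40 mice and at 52.7, 62.8 and 66.6 TPM in FGL00 mice, a log2 difference of -1.26 ± 0.20. The summed level of Tgtp1 and Tgtp2 was 8.76, 6.41 and 8.21 TPM in FGL40 and 1.89, 5.79 and 3.24 TPM in FGL00, again with no overlap between the groups. Taken apart, Tgtp2 differed by -1.10 ± 0.26 and Tgtp1, whose mice overlapped, by -0.64 ± 0.42 on the log2 scale. Ifi47 did not share this separation: its levels were 19.3, 13.01 and 18.4 TPM in FGL40 and 11.4, 17.98 and 13.5 TPM in FGL00, and its log2 difference was -0.23 ± 0.25.

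Among the GBPs, Gbp3 stood at 12.2, 5.62 and 10.2 TPM in FGL40 and at 2.44, 4.44 and 3.52 TPM in FGL00 (log2 difference -1.18 ± 0.29). Gbp7 stood at 6.72, 4.49 and 7.12 TPM in FGL40 and at 1.65, 3.11 and 2.89 TPM in FGL00 (-1.01 ± 0.21). Both were lower in every FGL00 mouse. Gbp2 was at 5.05, 3.65 and 4.58 TPM in FGL40 and at 1.80, 4.18 and 3.93 TPM in FGL00, so that the groups overlapped and the log2 difference was -0.38 ± 0.25.

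Counted over the 10 genes, 7 were called lower in FGL00 than in FGL40 mice (all but Ifi47, Tgtp1 and Gbp2), where 13.7% of the 18050 genes tested in females were called lower. A call means a Benjamini-Hochberg adjusted p under 0.05 over all genes. The mice did not overlap for 7 of the 10 genes, all lower in FGL00, where 24.1% of all genes had all 3 FGL00 mice below all 3 FGL40 mice. Since the genes were selected on values of this contrast, nothing is read from these shares. A share of all genes without overlap was computed only for GL00 against GL40. Where mice are said to be apart in other comparisons, no such share stands beside it. The median log2 difference was -1.06 over the 10 genes and -0.02 over all genes. Without mouse FGL40-2695 the same number of 7 was called, against 11.1% of all genes, and the median was -1.17. The count was also 7 without any other mouse of the 2 groups.

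Compared with wild-type females, which differ in genotype as well as in ascorbate supply, FGL00 mice had 9 of the 10 genes called lower. FWT00 mice held 35.3, 41.3 and 49.7 TPM of Irgm2 and 37.5, 45.9 and 64.9 TPM of Igtp, and the log2 differences of FGL00 from FWT00 were -1.85 ± 0.19 and -2.00 ± 0.30. For Gbp2 the FWT00 values were 6.08, 5.58 and 10.5 TPM, all above the 3 FGL00 values, with a difference of -0.97 ± 0.25. The one gene not called was Ifi47, at -0.50 ± 0.25. In this comparison 17.4% of all genes were called lower. With TPM rescaled between mice by median ratios, the calls over all genes shifted from 1396 higher and 3139 lower to 2303 higher and 2240 lower, while 9 members were called lower as before.

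**Figure D2:**
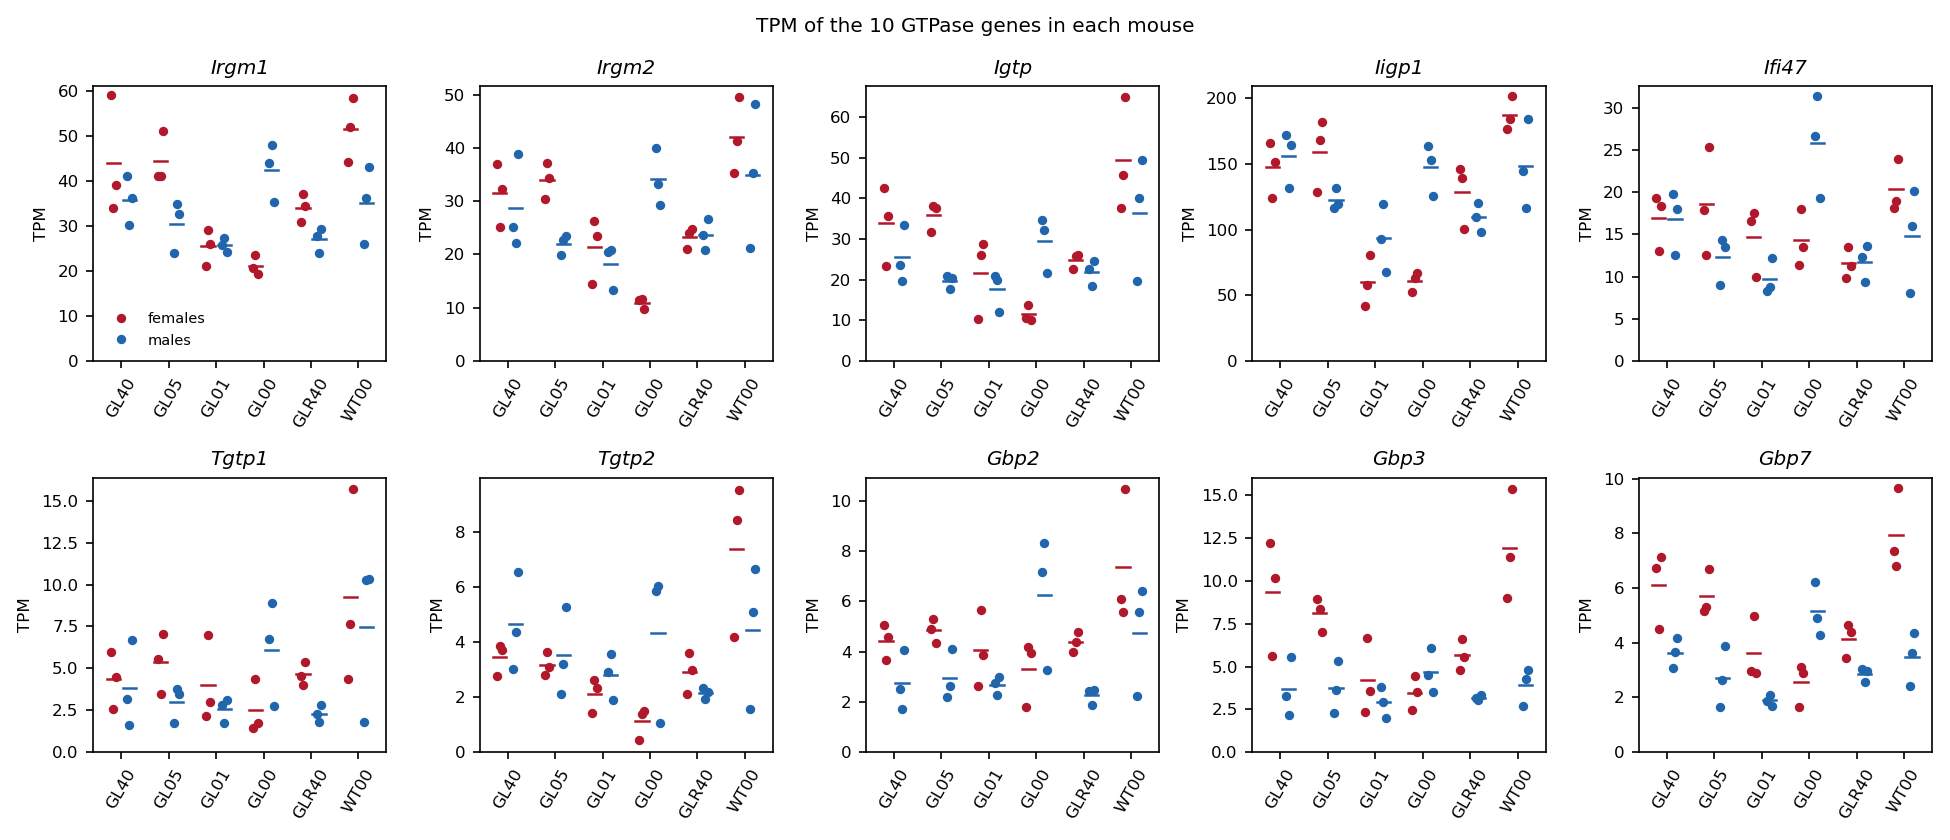
TPM of the 10 GTPase genes (y axes, from 0) in each of the 36 mice, by group; points are mice, bars are group means, females in red and males in blue. In FGL00 females Irgm2 was between 9.79 and 11.6 TPM, below all other females, whereas the 3 MGL00 males were between 29.2 and 40.0 TPM.

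In males no member was called lower after the same withdrawal. Irgm2 stood at 25.1, 22.1 and 39.0 TPM in MGL40 mice and at 40.0, 33.1 and 29.2 TPM in MGL00 mice, and the groups overlapped. Iigp1 stood at 172, 132 and 164 TPM in MGL40 and at 164, 153 and 126 TPM in MGL00, with a log2 difference of -0.08 ± 0.19. Gbp7 was the one gene whose mice did not overlap, and it was higher without ascorbate, at 3.08, 3.65 and 4.16 TPM in MGL40 and 6.23, 4.91 and 4.30 TPM in MGL00. In 9.85% of the 17661 genes tested in males a higher level was called in MGL00, and in 24.3% all 3 MGL00 mice were above all 3 MGL40 mice. None of the 10 GTPase genes was called by limma in either direction, 1 of them having an unadjusted p under 0.05.

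Some of the male values were higher without ascorbate in 2 of the 3 mice. Gbp2 stood at 2.52, 1.70 and 4.08 TPM in MGL40 and at 7.16, 8.31 and 3.26 TPM in MGL00 (log2 difference 0.91 ± 0.32). Ifi47 stood at 19.8, 12.6 and 18.03 TPM in MGL40 and at 26.7, 31.5 and 19.3 TPM in MGL00 (0.59 ± 0.28). Mouse MGL00-2787 had the lowest MGL00 value for all 10 genes, and without it 1 gene was called higher. Over the 10 genes the male median was 0.30, against 0.07 over all genes. Rescaling by median ratios changed the calls over all genes from 1740 higher and 432 lower to 702 higher and 925 lower, and left the members at 0 calls.

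Set against each other, the withdrawal differences of the sexes parted in one direction for every member: each of the 10 log2 differences was lower in females than in males. The gap, females minus males, ran from -1.71 ± 0.33 for Irgm2 and -1.67 ± 0.44 for Igtp to -0.86 ± 0.55 for Tgtp2 and -0.82 ± 0.39 for Ifi47. An interaction term called 7 of the 10 lower (the 3 regulators, Iigp1, Gbp2, Gbp3 and Gbp7), where it called 11.2% of 17881 genes lower. These genes were picked on such values, and the counts carry no weight as a test. With median-ratio scaling the interaction called 6 of the members, Gbp2 falling out, and over all genes the calls moved from 426 higher and 2002 lower to 962 higher and 945 lower. Without single mice of the 4 groups the count was between 5 and 8.

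**Figure D3:**
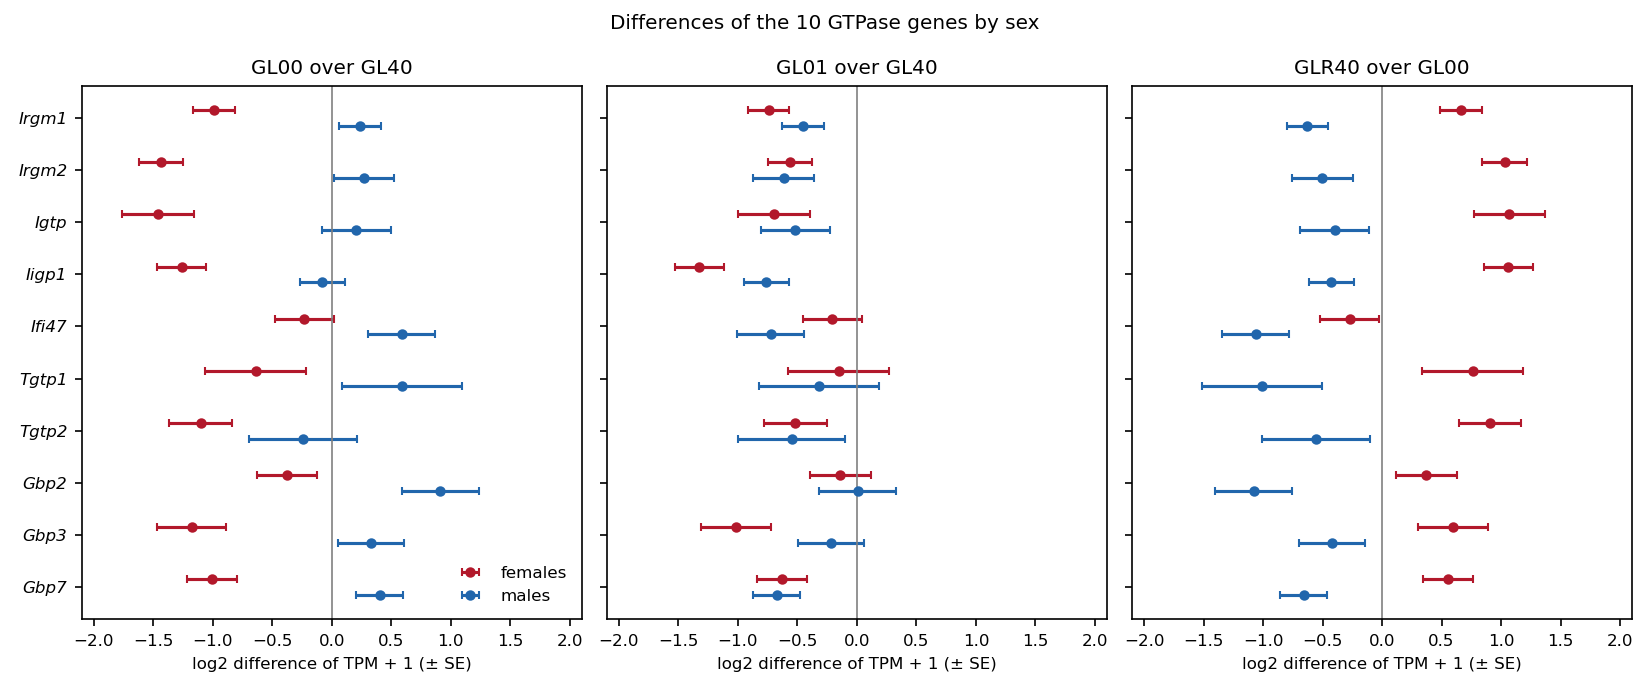
Log2 differences of TPM + 1 with their SE (x axes) for the 10 GTPase genes (y axis) in 3 comparisons, females in red and males in blue. After withdrawal (left) the female differences lay between -1.46 and -0.23 and the male differences between -0.24 and 0.91.

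Lifelong supply of 0.01% ascorbate also went with lower levels in females. Iigp1 stood at 41.7, 57.5 and 80.7 TPM in FGL01 mice, as low as in FGL00 and with no overlap with FGL40 (log2 difference -1.32 ± 0.20). Irgm1 stood at 21.2, 29.0 and 26.0 TPM (-0.74 ± 0.17), also below all FGL40 mice. By contrast, Irgm2 stood at 14.4, 26.3 and 23.4 TPM, between the FGL40 and FGL00 levels, and its difference from FGL40 was -0.56 ± 0.19. Igtp spread from 10.3 to 28.8 TPM in FGL01 and differed by -0.69 ± 0.30. FGL01-2722 was the lowest of the 3 mice for all members except Ifi47 and Gbp7.

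In the comparison of FGL01 with FGL40, 5 of the 10 genes were called lower (Irgm1, Irgm2, Iigp1, Gbp3 and Gbp7), where 5.58% of all genes were. The count was 5 without FGL40-2695, against 4.57% of all genes, but it was 2 without FGL01-2722, FGL40-2694 or FGL40-2696. Over all genes 2584 were higher and 1008 lower, and with median-ratio scaling 1356 were higher and 1767 lower, with the members at 5 in both.

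Markers of some cell types, immune and other, were higher in the same FGL01 livers. B cell markers (7 genes) summed to 14.0 to 19.2 TPM in FGL40 and 36.8 to 194.5 TPM in FGL01, and 5 of the 7 rose, also after median-ratio scaling and without FGL40-2695. T cell markers (11 genes) summed to 12.5 to 13.3 TPM and 20.05 to 35.3 TPM, and 5 rose (1 after scaling, 2 without FGL40-2695). Kupffer cell markers (12 genes) summed to 537 to 595 TPM and 709 to 943 TPM, and 5 rose (0 after scaling, 3 without FGL40-2695). Their part in the levels of the GTPases was not tested.

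In males at 0.01% ascorbate, 1 member was called lower. Iigp1 stood at 93.0, 119.6 and 67.7 TPM in MGL01 mice, all below the MGL40 mice, with a log2 difference of -0.76 ± 0.19, and 1.46% of all genes were called lower. The call was lost without MGL01-2711, MGL01-2713, MGL40-2690 or MGL40-2719. Gbp7 (-0.68 ± 0.20), Ifi47 (-0.73 ± 0.28), Irgm2 (-0.62 ± 0.25) and Irgm1 (-0.45 ± 0.18) were also lower in all 3 MGL01 mice than in all 3 MGL40 mice, without a call. The share of all genes that separated in this way was not computed for this comparison, so nothing is read from these separations. Of the 10 genes, 7 had their lowest male group mean at MGL01. Over all genes 347 were called higher and 258 lower, and 235 and 357 after median-ratio scaling.

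At 0.05% ascorbate no member was called in either sex. FGL05 mice had 30.4, 37.2 and 34.4 TPM of Irgm2 and 129, 168 and 182 TPM of Iigp1, within or near the range of FGL40. None of the 10 genes was called by limma in FGL05 against FGL40, none had an unadjusted p under 0.05, and the log2 differences ran from -0.13 to 0.26. Without FGL40-2695 the count was 0 as well. In that comparison 0% of all genes were called higher, and 801 had an unadjusted p under 0.05. MGL05 mice had 19.96, 22.7 and 23.5 TPM of Irgm2 and 116, 132 and 119.6 TPM of Iigp1, and the log2 differences from MGL40 ran from -0.43 to 0.09. None was called, none had an unadjusted p under 0.05, and 0.017% of all genes were called lower.

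When ascorbate was added back, the female levels were higher than after withdrawal. FGLR40 mice had 21.003, 24.1 and 24.8 TPM of Irgm2, 22.7, 25.8 and 26.1 TPM of Igtp, and 30.8, 37.0 and 34.3 TPM of Irgm1. Iigp1 stood at 146, 139.6 and 101 TPM. All of these values were above those of the 3 FGL00 mice. The log2 differences of FGLR40 from FGL00 were 1.03 ± 0.19 for Irgm2, 1.07 ± 0.30 for Igtp, 0.66 ± 0.17 for Irgm1 and 1.06 ± 0.20 for Iigp1. Gbp3 (0.60 ± 0.29) and Gbp7 (0.56 ± 0.21) were also higher in each FGLR40 mouse, and Ifi47 was not (9.85, 13.6 and 11.3 TPM, -0.27 ± 0.25).

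Of the 10 genes, 5 were called higher in FGLR40 than in FGL00 females (Irgm1, Irgm2, Igtp, Iigp1 and Tgtp2), where 16.6% of all genes were. With median-ratio scaling 4 members were called, Irgm1 falling out, and the calls over all genes changed from 3005 higher and 957 lower to 1633 and 1644. The count was 3 without FGL00-2788, FGL00-2791 or FGLR40-2718 and 2 without FGLR40-2717. Set against FGL40, 9 of the 10 log2 differences of FGLR40 were below 0, and that of Irgm2, whose mice did not overlap, was -0.41 ± 0.19. None of the 10 was called by limma, 2 had an unadjusted p under 0.05, and 0.626% of all genes were called lower. Without FGL40-2695 the median of the 10 was -0.52 in place of -0.36, again with 0 calls. Over all genes, 297 were higher and 113 lower, and 77 and 186 after median-ratio scaling.

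In males, add-back went with lower levels than withdrawal. Ifi47 stood at 12.3, 9.36 and 13.6 TPM in MGLR40 mice, below all MGL00 mice (log2 difference -1.06 ± 0.28). Gbp2 stood at 2.45, 1.86 and 2.48 TPM (-1.08 ± 0.32), Gbp7 at 3.04, 2.58 and 2.96 TPM (-0.66 ± 0.20) and Irgm1 at 27.7, 23.9 and 29.4 TPM (-0.63 ± 0.18). These 4 genes were called lower, where 6.15% of all genes were. The calls were few in the alternatives: 1 (Ifi47) with median-ratio scaling, 0 without MGL00-2783, MGL00-2784, MGLR40-2828 or MGLR40-2829, and 1 without MGLR40-2831. All 10 log2 differences were below 0. Over all genes 526 were higher and 1087 lower, and 873 and 643 after scaling. Against MGL40, all 10 log2 differences of MGLR40 were below 0 (-0.79 to -0.09), none was called by limma, 2 had an unadjusted p under 0.05 and 0% of all genes were called lower.

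Wild-type livers held the highest female levels. FWT00 had the highest mean of the 6 female groups for all 10 genes, and mouse FWT00-2643 had the highest value of all 36 mice for 8 of them. Against FGL40, Tgtp2 (4.18, 8.45 and 9.52 TPM, log2 difference 0.86 ± 0.26), Gbp2 (0.59 ± 0.25) and Iigp1 (177, 184 and 201 TPM, 0.35 ± 0.20) were higher in every FWT00 mouse. None of the 10 was called by limma, 3 had an unadjusted p under 0.05, and 0.133% of all genes were called higher. Without FGL40-2695 the median fell from 0.38 to 0.25. In males the WT00 mice spread widely, from 19.7 to 49.6 TPM for Igtp and from 1.79 to 10.3 TPM for Tgtp1. The median log2 difference of MWT00 from MGL40 was 0.04, none of the 10 was called by limma or had an unadjusted p under 0.05, and 0.3% of all genes were called higher (53 higher and 27 lower, and 36 and 41 after scaling). MGL00 males did not differ past the test from MWT00 males either (0 called by limma, 2 with an unadjusted p under 0.05, 6.72% of all genes higher, and 1 called without MWT00-2683). That comparison had 1186 genes higher and 714 lower, and 931 and 1053 after scaling.

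Put in order, the summed level of the 10 genes in females ran from FWT00 (343, 382 and 459 TPM) through FGL05 (277, 323 and 358 TPM), FGL40 (357, 239.6 and 307 TPM) and FGLR40 (249.7, 263 and 220.2 TPM) to FGL01 (116, 183 and 185 TPM) and FGL00 (114, 147 and 133 TPM). Neighbours in this order overlapped except FGLR40 and FGL01. FGL00 had the lowest female mean for 8 of the 10 genes, Iigp1 being lower on average in FGL01 and Ifi47 in FGLR40. In males the sums were 339.6, 332 and 246 TPM in MGL00, 230.4, 273 and 378 TPM in MWT00, 297, 229.7 and 318 TPM in MGL40, 199.9, 237 and 232 TPM in MGL05, 209, 204 and 206 TPM in MGLR40 and 183, 209 and 141 TPM in MGL01. All male neighbours overlapped. Gene by gene, 8 of 50 neighbouring pairs of female groups and 1 of 50 male pairs did not overlap. Neighbours were set by the same means, the members varied together, and no such share was computed over all genes. Nothing is therefore read from these counts.

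Between the sexes over all groups, the share of members called higher in females was no larger than that of all genes. The log2 differences of females from males, with the 6 regimens as a term, were 0.70 ± 0.15 for Gbp3, 0.46 ± 0.13 for Gbp7 and 0.36 ± 0.14 for Gbp2, and these 3 of the 10 were called, where 36.6% of all genes were called higher. The IRG members ran from -0.17 for Iigp1 to 0.25 for Tgtp1 without a call. After median-ratio scaling Gbp3 and Gbp7 remained higher, Gbp2 was not called, and Iigp1 was called lower in females, while the calls over all genes moved from 6541 higher and 1319 lower to 3550 and 3588. With 0.4% ascorbate Gbp3 stood at 9.34 ± 3.39 TPM in females and 3.67 ± 1.74 TPM in males, and after withdrawal at 3.46 ± 0.999 and 4.69 ± 1.30 TPM (SD, n = 3 each). Gbp2 (3.30 ± 1.31 and 6.24 ± 2.65 TPM) and Gbp7 (2.55 ± 0.786 and 5.15 ± 0.985 TPM) also had the lower mean in females after withdrawal.

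The 10 genes varied together from mouse to mouse. Over the 36 mice, Pearson's r of log2(TPM + 1) between pairs of members had a median of 0.72 over 45 pairs, from 0.34 between Iigp1 and Ifi47 to 0.96 between Irgm2 and Igtp. Taken within groups, on deviations from group means, the median was 0.67, and Irgm2 and Igtp again had the highest value (0.93) and Iigp1 and Ifi47 the lowest (0.05). Such values are descriptive, since mice of a group share their regimen and Tgtp1 and Tgtp2 share sequence. Replicates were least alike for Tgtp1 and Tgtp2, whose coefficient of variation within groups averaged 45.9% and 35.2%, and most alike for Irgm1 (15.2%) and Iigp1 (16.4%).

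Among 11539 other named genes that averaged 1 TPM or more, the ones whose pattern was most like the mean standardised level of the members included Gbp6 (r = 0.90 over 36 mice), Parp14 (0.90), Gbp10 (0.89), Rtp4 (0.89), Irf7 (0.89), Rnf213 (0.88) and Oasl2 (0.86). On deviations from group means these genes had r between 0.74 and 0.87.

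The IRG and GBP genes outside the 10 fell in part. Of 18 tested, 8 were lower in FGL00 than in FGL40 females, none was higher, and their median log2 difference was -0.40. Beside the counts of this and later lists, 13.7% of all genes were called lower in FGL00 females, and 1726 of 18050 higher. The lists were chosen with earlier results of these data known, so their counts and adjusted p-values are a description. Gbp5, a GBP of macrophages and other immune cells, fell from 6.43 ± 1.15 to 2.28 ± 0.229 TPM (-1.17 ± 0.17, adjusted p = 0.000283). Gm4951, an IRG-type gene beside Iigp1, fell from 42.5 ± 2.67 to 18.7 ± 3.03 TPM (-1.15 ± 0.23, adjusted p = 0.00196), and Gm12250, which encodes Irgb10, from 2.54 ± 0.472 to 0.650 ± 0.472 TPM (-1.13 ± 0.28, adjusted p = 0.00879). Gbp10 (-2.08 ± 0.33, adjusted p = 0.000519) and Gbp6 (-1.42 ± 0.37, adjusted p = 0.0115) fell too, but 89.8% and 74.3% of their 31-base words occur in other genes, and their values are uncertain. By contrast, Gbp4, Gbp8, Gbp9, Gbp2b and Irgq had log2 differences between -0.31 and 0.04 and did not pass the test. Gbp11 went the other way without a call, from 4.40 ± 0.832 TPM in FGL40 to 6.69 ± 1.13 TPM in FGL00. Its log2 difference was 0.51 in females and -0.72 in males. The calls of Gbp6, Gm4841 and 9930111J21Rik2 were lost without at least 1 mouse (adjusted p from 0.0508 to 0.0955), and 5 genes were called without FGL40-2694 and 8 without FGL40-2695.

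In males none of these 18 genes was called by limma after withdrawal, none had an unadjusted p under 0.05, and the median was 0.00. The interaction was called for 6, all lower in females, where it called 11.2% of all genes lower. Among the 6 were Gbp5 (-1.16 ± 0.20, adjusted p = 0.000367), Gm4951 (-1.28 ± 0.27, adjusted p = 0.00208) and Gm12250 (-1.51 ± 0.39, adjusted p = 0.0106). At 0.01% ascorbate 3 of the 18 fell in females, where 5.58% of all genes were called lower. These were Gbp5 (-1.05 ± 0.17, adjusted p = 0.000799), Gm4951 (-0.998 ± 0.23, adjusted p = 0.00662) and Gbp10 (-1.62 ± 0.33, adjusted p = 0.00362). After add-back Gm4951 rose by 1.06 ± 0.23 (adjusted p = 0.00425) over FGL00, one of 6 genes that rose, while Gbp11 fell (-1.12 ± 0.29, adjusted p = 0.0119). In that comparison 16.6% of all genes were called higher, and 957 of 18050 lower.

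Type I interferon-stimulated genes, which carry ISREs and answer mainly to interferon alpha and beta, fell in females too. In FGL00 against FGL40 females 21 of 26 fell and none rose (median -0.83), and the count was 21 without FGL40-2695 as well. Rtp4, a chaperone protein of receptors, fell from 22.4 ± 3.38 to 6.95 ± 1.31 TPM (-1.56 ± 0.16, adjusted p = 2.67e-05), and Bst2, which tethers budding viruses, from 164 ± 25.3 to 60.5 ± 3.59 TPM (-1.42 ± 0.29, adjusted p = 0.00278). Irf7, a transcription factor of this response, fell by 0.94 on the log2 scale (adjusted p = 0.00236). In males 4 of 26 rose and none fell (2 rose after median-ratio scaling), where 9.85% of all genes were called higher. The interaction was called for 23 of 26, all lower in females (18 after scaling), where it called 11.2% of all genes lower.

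The signals upstream of the GTPases did not move as one. Of 15 genes of the interferon gamma receptor and its signaling, 3 rose and 4 fell in FGL00 females (2 and 3 without FGL40-2695). Jak1, the kinase of the receptor, had a log2 difference of 0.01 ± 0.10 (adjusted p = 0.979), and Irf1, a transcription factor that interferon gamma induces, of -0.36 ± 0.14 (adjusted p = 0.0694). The call of Stat2, at an adjusted p of 0.0498, was lost without any of the 6 mice. Among 12 genes of interferon gamma itself and the cytokines that elicit it, 1 rose and none fell. That one was Il18bp, the secreted inhibitor of interleukin 18, at 0.62 ± 0.19 (adjusted p = 0.0244), a call lost without 5 of the 6 mice singly. Without FGL40-2695 none of the 12 rose and 1 fell, which was Il15, a cytokine of NK cells (-1.05, adjusted p = 0.0467, against -0.83 and 0.0697 with it). Il18 rose in males (0.74 ± 0.16, adjusted p = 0.00961) and stood at 0.10 ± 0.15 (adjusted p = 0.673) in females.

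Other genes raised by interferon gamma were divided. Of 22 in the list, 7 fell and 1 rose in FGL00 females, the one that rose being Serping1, the C1 inhibitor of the complement system (0.83 ± 0.09, adjusted p = 2.75e-05). Parp9, a member of the PARP family, fell by 0.67 on the log2 scale (adjusted p = 0.00212). In MHC class I presentation 1 of 17 rose and 1 fell (0 and 1 without FGL40-2695), and B2m (-0.19 ± 0.11, adjusted p = 0.265) and H2-K1 (-0.04 ± 0.12, adjusted p = 0.86) did not pass the test. MHC class II genes, also raised by interferon gamma, were not called in females (0 of 7 by limma, 0 with an unadjusted p under 0.05). Of 15 genes of ATG8 conjugation and vacuole partners of the GTPases, 3 rose and 4 fell (4 and 3 after median-ratio scaling, 3 and 2 without FGL40-2695). Map1lc3b, an ATG8 protein, rose (0.58 ± 0.12, adjusted p = 0.00216), and Gabarapl1, another, fell (-0.56 ± 0.15, adjusted p = 0.0143), the latter call being lost without FGL00-2788 or FGL40-2695.

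Acute phase genes, secreted proteins that hepatocytes raise in inflammation, went the other way and in both sexes. In FGL00 females 11 of 12 rose (median 1.89) and in MGL00 males 12 of 12 (median 2.28), with 0 interaction calls by limma and 2 at an unadjusted p under 0.05. Hpx, which binds free heme, rose from 2307 ± 103 to 7724 ± 744 TPM in females (1.74 ± 0.16, adjusted p = 1.34e-05).

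**Figure D4:**
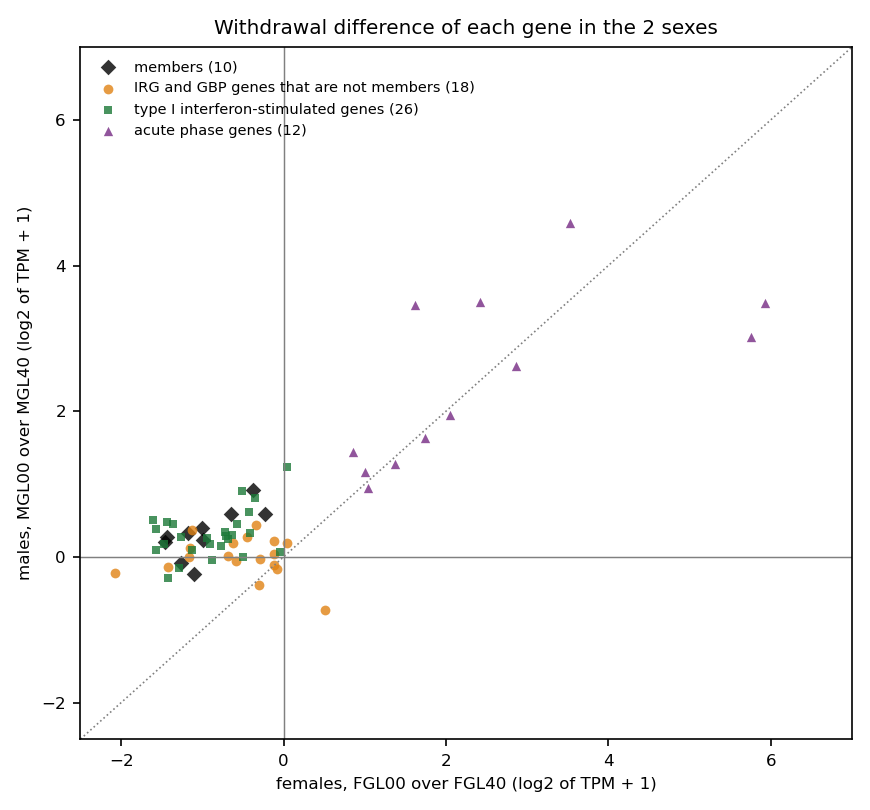
Log2 difference of TPM + 1 after withdrawal in females (x axis) and males (y axis) for single genes: the 10 members (black), 18 other IRG and GBP genes (orange), 26 type I interferon-stimulated genes (green) and 12 acute phase genes (purple); the dotted line marks equal differences. The 10 members and 25 of the 26 type I genes lay below 0 in females, and all 12 acute phase genes lay above 0 in both sexes.

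Cell type markers were set beside these values. NK cell markers (11 genes) summed to 8.52 to 9.79 TPM in FGL40 and 6.08 to 10.5 TPM in FGL00. T cell markers (11 genes) summed to 12.5 to 13.3 TPM and 10.7 to 20.6 TPM. None of either list was called by limma or had an unadjusted p under 0.05 in females. In males the NK cell sums were higher after withdrawal, at 3.61 to 4.44 TPM in MGL40 and 5.20 to 8.13 TPM in MGL00. The male T cell sums were higher too, at 5.77 to 8.52 TPM in MGL40 and 10.03 to 11.3 TPM in MGL00. Kupffer cell markers (12 genes) summed to 537 to 595 TPM in FGL40 and 499 to 802 TPM in FGL00 with 0 calls by limma (3 at an unadjusted p under 0.05, and 1 called higher without FGL40-2695), whereas in males they summed to 290.2 to 384 TPM in MGL40 and 461 to 556 TPM in MGL00, with 8 of 12 higher (2 after median-ratio scaling). Markers of sinusoidal endothelial cells (10 genes) summed to 265 to 280.5 TPM in FGL40 and to 128, 231 and 277 TPM in FGL00, with 3 lower and 1 higher (2 and 0 without FGL40-2695). Among them Clec4g, a lectin receptor, fell (-1.11 ± 0.28, adjusted p = 0.0104), a call lost when the fit held these 2 groups alone (adjusted p = 0.071). Mouse FGL00-2788 had the lowest sum of both the endothelial and the Kupffer markers in its group, and the count of 7 GTPase genes was the same without it. Neutrophil markers rose for 5 of 7 in females (4 without FGL40-2695). No marker of the NK, T, Kupffer or endothelial lists was at 0 throughout a GL40 or GL00 group. The part of these cell types in the GTPase levels was not tested.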

How the data were processed

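Liver RNA of 36 mice (12 groups of 3) was sequenced as strand-specific poly(A) libraries. Reads were trimmed with fastp 0.20.0 and assigned to Ensembl mouse transcripts with kallisto 0.46.2, and the authors deposited 1 table of TPM for 36066 genes and 36 mice, each mouse summing to 1000000. How transcripts were added up to genes is not given in the sources used here. TPM carry no read depth, so counting error is unknown. All columns matched a mouse (unmatched: 0). No comparison computed by the study was used.

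Log2(TPM + 1) was fitted with limma 3.58.1 in R 4.3.3 (trend and robust variance, statmod 1.5.0), with 1 mean per group over the 18 mice of a sex, for genes above 0 TPM in at least 13 of them. Fits of both sexes held genes above 0 in at least 25 of 36 mice. P-values were adjusted by Benjamini-Hochberg over all genes, and a call is an adjusted p under 0.05. The code was tested on simulated data. Tables were handled in Python 3.11.15 (pandas 2.3.3, numpy 2.4.6). A fold change on this scale understates that of rare genes. Nothing says that mice of a group came from separate litters, and p-values measure the spread between these mice.

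The members and gene lists were chosen with earlier results of these data known. Beyond the members, the genes named were the 4 of highest mean TPM in each pathway list, the 3 highest in each marker list, IRG and GBP genes that averaged 1 TPM or more, and the 8 most like the members, predicted genes left out. A gene that this rule also named is not reported here. Promoters and positions came from RefSeq (GRCm38.p6), and shared words from GENCODE M21 transcripts, another annotation than that of the study. Alternatives were median-ratio scaling, log2(TPM + 0.1), no filter, at least 1 TPM in 3 mice, only the groups compared, and leaving out each mouse.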

Additional observations from a re-analysis of the deposited data

Results flagged for a closer look

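After withdrawal of ascorbate the values of a few members lay on opposite sides in the sexes. For Irgm2, Gbp2 and Gbp7, all 3 FGL00 mice lay below the FGL40 mean and all 3 MGL00 mice above the MGL40 mean. The female log2 difference minus the male one was -1.71 for Irgm2, -1.29 for Gbp2 and -1.41 for Gbp7, and the limma interaction called all 3. Since these genes were chosen on such values, the calls are a description, and the difference was not tested in mice that the choice did not use.

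Outside the members, the limma interaction over all genes called the genes named below, each with the lower log2 difference in females. Their lists were chosen with earlier results of these data known, so these calls are a description too. Among IRG and GBP genes the female minus male log2 difference was -1.85 for Gbp10 (adjusted p = 0.0164), -1.51 for Gm12250 (adjusted p = 0.0106), -1.28 for Gm4951 (adjusted p = 0.00208), -1.16 for Gbp5 (adjusted p = 0.000367) and -0.72 for 9930111J21Rik2 (adjusted p = 0.0094). Of the 31-base words of Gbp10 and 9930111J21Rik2, 89.8% and 70.6% occur in other genes, and their values are uncertain. Among interferon signaling and interferon-stimulated genes the female minus male difference was -1.67 for Rtp4 (adjusted p = 0.000111), -1.20 for Irf7 (adjusted p = 0.00629), -1.16 for Ifitm3 (adjusted p = 0.00723), -1.12 for Bst2 (adjusted p = 0.0305), -0.74 for Stat2 (adjusted p = 0.0165), -0.72 for Parp9 (adjusted p = 0.00725), -0.57 for Lgals3bp (adjusted p = 0.037) and -0.54 for H2-T23 (adjusted p = 0.0332). Among ATG8 genes it was -0.69 for Gabarapl1 (adjusted p = 0.0361) and -0.35 for Gabarap (adjusted p = 0.00819). In their list of 15 genes the interaction called 1 higher and 2 lower in females. After median-ratio scaling it called 3 higher and 0 lower, so that the lower calls of Gabarapl1 and Gabarap were lost.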

How the results depend on the processing

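No member or named gene that was called changed its direction under any alternative run. Of 174 recounts of called members, 149 stayed within 1.5 times the reported count. In FGL01 against FGL40 the count of 5 was 3 with no filter on low values and 1 when only the groups compared were fitted, and 2 to 5 without single mice. In FGLR40 against FGL00 it was 2 to 5 without single mice. In MGL01 against MGL40 the count of 1 was 0 with no filter and 0 with only the groups compared, and 0 to 1 without single mice. In MGLR40 against MGL00 the count of 4 was 1 with median-ratio scaling, 2 with log2(TPM + 0.1), 1 with no filter, and 0 to 3 without single mice. The count of 0 was 0 to 1 without single mice both in MGL00 against MGL40 and in MGL00 against MWT00. The causes were not tested. Of the member log2 differences, Tgtp2 in FGL00 against FGL40 moved to -1.68 and Gbp7 in MGL01 against MGL40 to -0.90 with log2(TPM + 0.1). For named genes outside the members, 200 recomputed values lost the call, 54 gained it and 152 moved, of 3606 recomputed. TPM hold no read depth, so the precision of the rare members (Tgtp1, Tgtp2 and the GBPs) is known only from the spread of 3 mice. No paired analysis was possible because the replicate numbers are animal numbers that no 2 groups share.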
